A study of Mus musculus with 18 samples.

Results

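The regions described here are 14622 domains of H3K27me3 that hold no H3K36me2 peak, chosen in E14 mouse embryonic stem cells. They are the rows of the authors' replicated H3K27me3 peak list on chromosomes 1 to 19 that are at least 2 kb and under 50 kb long and share no base with the authors' replicated H3K36me2 peak list. The list holds 43094 H3K27me3 peaks, of which 39750 lie on these chromosomes in this length range. The remaining peaks in that range serve as comparison sets: 15936 lie wholly inside H3K36me2 peaks and 9192 are partly covered by them. Membership therefore rests on H3K27me3 and H3K36me2 in untreated cells, and the levels of those 2 marks there are given below as a description, with no test.

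H3K27me3 is deposited by the Polycomb complex PRC2, whose catalytic subunit EZH2 adds methyl groups to lysine 27 of histone H3 in steps through H3K27me1 and H3K27me2. It marks silent developmental genes in embryonic stem cells, where PRC2 is recruited most strongly to CpG-rich promoters and spreads outward from them. H3K36me2, made by enzymes such as NSD1, covers broad stretches of chromatin, and H3K36me3, made by SETD2, follows transcribed gene bodies. Methylation at lysine 36 hinders PRC2 on the same histone tail. In these peak lists most H3K27me3 peaks nevertheless touch an H3K36me2 peak.

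The data are ChIP-seq signal in 18 libraries forming 9 groups of 2. All came from E14 cells, a male mouse line kept undifferentiated in 2i/LIF medium. Untreated cells were profiled for H3K27me1, H3K27me2, H3K27me3, H3K36me2 and H3K36me3 without a spike-in. Cells given DMSO, the solvent, or 10 µM EPZ-6438, an inhibitor of EZH2, for 7 days were profiled for H3K27me3 and H3K36me2 with Drosophila S2 chromatin added at 0.05%. All groups use the same cell line, and the labels do not say whether replicates came from separate cultures, so p-values measure only the spread between these libraries. Over the body of the stem cell gene Pou5f1, the 2 H3K36me3 libraries read 6.53 and 7.35 times the library mean. Of 10 stem cell markers, the lowest was Dppa5a at 1.12 and 1.25. The 12 markers of other cell types ranged from 0.43 (Col1a2) to 3.62 (Eomes). Depth was uneven: the inhibitor-treated H3K27me3 libraries held 975517 and 1745526 window reads on the autosomes, and all other libraries held 21252232 to 109819739. No input library was used here.

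Promoter sequence is shown for 6 genes whose start lies in a member, to set the letters beside members whose H3K27me3 differed after EZH2 inhibition. Each stretch is the 250 bases before the start, 5′ to 3′ on the gene's strand, from RefSeq on GRCm38.p6, with every CG in capitals. The letters CG read the same on both strands. Relative to the library mean, H3K27me3 rose after EZH2 inhibition at the first 3 genes and fell at Isl1, with values below. Efna5 was lower too, and was chosen as 1 of the 5 members of at least 4 kb with the largest fall of log2(scaled H3K27me3 + 1). Rbfox1, which encodes a neuronal splicing regulator, read 10.5 and 10.4 times the library mean in DMSO and 4.80 and 9.87 after the inhibitor, and did not pass the test (limma-voom adjusted p = 0.309). The stretches are chr11:93099040-93099289 (plus strand) for Car10, chr14:39473089-39473338 (minus strand) for Nrg3, chr12:56536909-56537158 (minus strand) for Nkx2-1, chr17:62881318-62881567 (minus strand) for Efna5, chr13:116309689-116309938 (minus strand) for Isl1 and chr16:5884543-5884792 (plus strand) for Rbfox1.
Car10: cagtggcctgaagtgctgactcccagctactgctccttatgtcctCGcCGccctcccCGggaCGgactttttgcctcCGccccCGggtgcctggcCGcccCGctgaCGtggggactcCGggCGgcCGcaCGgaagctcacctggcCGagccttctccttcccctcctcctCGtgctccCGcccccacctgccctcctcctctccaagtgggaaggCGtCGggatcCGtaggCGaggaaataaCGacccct
Nrg3: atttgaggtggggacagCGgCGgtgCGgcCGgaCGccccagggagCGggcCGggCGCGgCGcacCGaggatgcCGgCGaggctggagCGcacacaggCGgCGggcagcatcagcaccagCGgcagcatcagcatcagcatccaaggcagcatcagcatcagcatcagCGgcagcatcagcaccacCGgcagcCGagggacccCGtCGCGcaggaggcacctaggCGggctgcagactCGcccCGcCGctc
Nkx2-1: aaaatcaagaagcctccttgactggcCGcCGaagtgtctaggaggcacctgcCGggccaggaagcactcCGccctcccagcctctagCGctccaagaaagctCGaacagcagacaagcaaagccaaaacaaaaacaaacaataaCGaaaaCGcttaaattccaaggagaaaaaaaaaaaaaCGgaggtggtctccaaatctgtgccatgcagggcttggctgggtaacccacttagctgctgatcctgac
Efna5: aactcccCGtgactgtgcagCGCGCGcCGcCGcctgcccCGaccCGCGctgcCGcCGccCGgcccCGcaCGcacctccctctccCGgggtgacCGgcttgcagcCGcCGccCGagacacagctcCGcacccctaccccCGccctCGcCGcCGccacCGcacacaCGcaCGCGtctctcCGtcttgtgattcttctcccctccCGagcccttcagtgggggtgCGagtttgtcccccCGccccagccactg
Isl1: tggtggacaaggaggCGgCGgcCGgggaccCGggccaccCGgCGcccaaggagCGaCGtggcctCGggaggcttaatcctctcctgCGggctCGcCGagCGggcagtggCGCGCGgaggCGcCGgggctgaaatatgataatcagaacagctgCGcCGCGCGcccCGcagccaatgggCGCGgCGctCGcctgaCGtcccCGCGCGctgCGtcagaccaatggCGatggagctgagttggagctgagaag
Rbfox1: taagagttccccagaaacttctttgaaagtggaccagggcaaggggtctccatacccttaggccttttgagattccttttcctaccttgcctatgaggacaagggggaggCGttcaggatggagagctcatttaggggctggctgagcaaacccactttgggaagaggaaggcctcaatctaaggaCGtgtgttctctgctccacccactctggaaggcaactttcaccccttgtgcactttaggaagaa
They hold 21 CG in Car10, 27 in Nrg3, 9 in Nkx2-1, 32 in Efna5, 33 in Isl1 and 2 in Rbfox1. Over the 300 bases that also take in the first 50 after the start, a CG occurred in 95.4% of 21263 coding promoters and in 96.3% of the 998 in members. At least 20 were present in 35.9% of all coding promoters and in 26.0% of those in members, and the median was 13 and 9.

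Members had a median length of 6.0 kb (quartiles 4.0 and 9.5 kb) and covered 113.516 Mb. On each chromosome they made up between 28.4% and 43.5% of the H3K27me3 peaks in the length range. The nearest H3K36me2 peak lay a median of 38.5 kb away, with quartiles of 11 and 119.5 kb and a maximum of 2443 kb. At the edges of the rule, the 720 members of 2 kb had a median untreated H3K27me3 level of 2.54 times the library mean, and the 566 excluded H3K36me2-free peaks of 1.5 kb had 2.91. The 45 members that abut an H3K36me2 peak had a median untreated H3K36me2 level of 0.940, against 0.932 in the 217 excluded peaks with only 500 bp in such a peak. Regions just inside and just outside the rule thus had similar levels.

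Most members held no gene start of the promoter set used here. That set has no chromosome 18 promoters, which leaves 14046 members. It also does not hold every gene: of 65 listed homeobox genes outside the Hox list, 49 were matched. Of these, 864 (6.15%) held the start of a protein-coding gene, against 15.8% of partly covered peaks and 12.2% of peaks inside H3K36me2 peaks. Partly covered peaks are longer, with a median of 13.5 kb. Per Mb, members held 8.25 such starts, partly covered peaks 10.6 and inside peaks 14.5. Of the 1386 members in the top 10% by DMSO H3K27me3, 430 held a protein-coding start. No start of a protein-coding gene or long non-coding RNA in that set lay in 12656 members (90.1%). Members without a start are meant in this sense throughout, and a start missing from the set can lie in such a member. Over all chromosomes, 57.5% of members were wholly outside protein-coding genes, against 44.9% of the peaks inside H3K36me2 peaks.

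Start sites of 867 of 17492 protein-coding genes (4.96%) lay in members. Counts of listed genes here are of those matched in the promoter set, which does not hold every gene. None of the 22 Hox genes in that set had its start in a member: all of their starts lay in H3K27me3 peaks of other lengths. Of 49 matched genes of the list of other homeobox genes, 3 had their start in a member. They were Nkx2-1, a regulator of forebrain, lung and thyroid development, Nkx6-1, a regulator of pancreatic beta cells and motor neurons, and Isl1, a regulator of motor neurons and heart progenitors. Homeobox genes that the list does not hold also had starts in members, among them Bsx, Shox2, Meox2 and Pou4f1. The basic helix-loop-helix list gave 4 of 23, namely Atoh1, Myf5, Twist1 and Tcf21. Of the 42 genes of the forkhead, T-box, GATA and Sox list 24 were matched, and none of these had its start in a member; Sox6 and Sox11, which the list does not hold, did. The signalling list gave 2 of 26, Wnt2 and Fgf9. Neuronal receptors and channels gave 9 of 29: Gria2, Gabrb2, Htr1a, Htr2a, Htr7, Kcna3, Kcnc2, Kcnj3 and Slc17a6. Among tandem gene families, 48 of 940 olfactory receptors lay in members, and 0 of 321 vomeronasal receptors did. Of 87 keratin (Krt) and keratin-associated protein (Krtap) genes, 19 lay in members, all of them Krtap genes except Krt33b. Of 20 pluripotency and 25 housekeeping genes, 12 and 16 were matched, and none of these lay in a member. Of the matched genes, 9 and 15 lay in no H3K27me3 peak, as did 68.9% of all protein-coding genes. Of 26 Polycomb genes 1 lay in a member, Bmi1, a subunit of PRC1.

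Members read lower than peaks inside H3K36me2 peaks in the other 3 marks of untreated cells, which the rule did not use. A level here is the mean scaled reads of the 1 kb windows inside a peak, and a relative level divides it by the mean of all autosomal windows of that library, so that 1 is the library mean. H3K36me3 over members was 0.486 and 0.499 in the 2 libraries, against 1.80 and 1.89 in peaks inside H3K36me2 peaks. The log2 ratio was -1.91 ± 0.025 (SD, n = 2), which is 3.75-fold lower. H3K27me2 was 0.932 and 1.07 over members and 1.87 and 1.76 inside, with a log2 ratio of -0.86 ± 0.21 (SD, n = 2). H3K27me1 was 0.818 and 0.919 over members and 1.04 and 1.07 inside, with a log2 ratio of -0.28 ± 0.090 (SD, n = 2). In each of these marks both libraries were lower over members, and H3K36me3 differed most. No test was made, since both sets are read in the same 2 libraries.

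**Figure D1:**
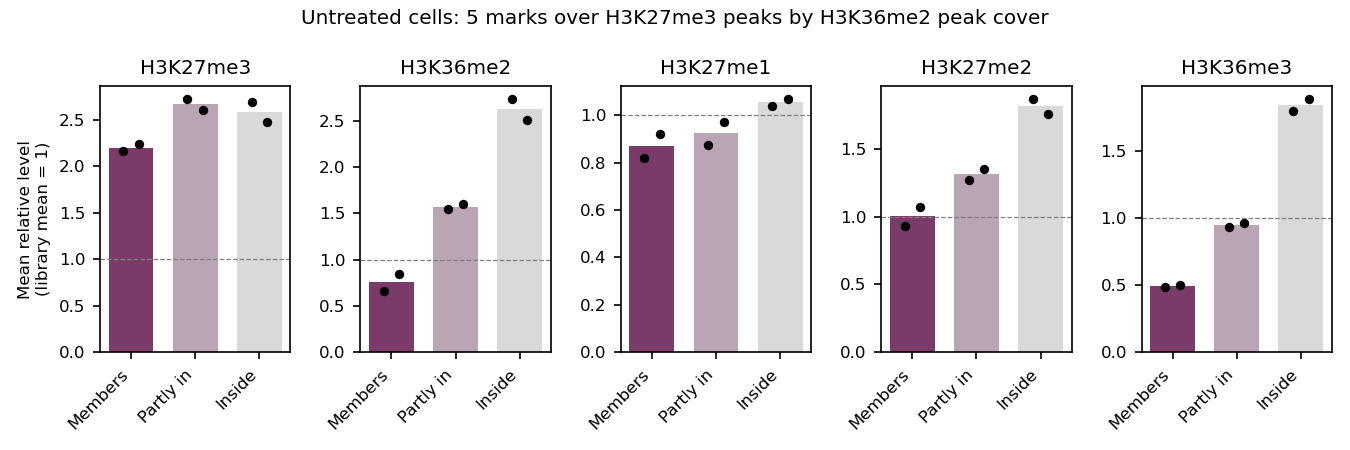
Mean relative level (vertical axis, library mean = 1, dashed line) of 5 marks in untreated cells over members, peaks partly in H3K36me2 peaks and peaks inside them; bars are means and points the 2 libraries. The mean of members is the lowest in every panel, and the first pair of panels shows the marks that chose them.

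The rule's own marks read as follows. Untreated H3K27me3 was 2.16 and 2.24 over members and 2.69 and 2.47 inside. Untreated H3K36me2 was 0.666 and 0.840 over members and 2.74 and 2.51 inside. The peak lists of the lower methylation states also left most members out. H3K27me2 peaks touched 18.4% of members, 78.7% of partly covered peaks and 93.3% of peaks inside H3K36me2 peaks. H3K27me1 peaks touched 7.90% of members and 43.6% of the inside peaks. Neither mark's peaks touched 11670 members (79.8%), against 6.60% of inside peaks.

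Members also read higher than their own surroundings in the marks compared next. Flanking stretches of the same length, placed 5 kb beyond either end and free of all 4 peak lists, existed for 7759 members. The choice of flanks without H3K27me1, H3K27me2, H3K27me3 or H3K36me2 peaks lowers those marks in the flanks by construction; of the marks given, only H3K36me3 was not used. In those members H3K36me3 was 0.455 and 0.462, against 0.229 and 0.196 in the flanks. H3K27me2 was 0.889 and 1.02 in the members and 0.671 and 0.766 in the flanks. H3K36me2 in DMSO was 0.803 and 0.845 in the members and 0.402 and 0.40 in the flanks. The part that mappability or chromatin recovery plays in this shared local maximum was not tested. Flanks and peak-free windows were added as comparisons after the data had been seen.

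EPZ-6438 removed almost all scaled H3K27me3 from members. On the spike-in scale, the reads per 1 kb window multiplied by the factor in the deposited track, members carried 105 and 76.5 in the DMSO libraries and 0.125 and 0.0951 after the inhibitor. The means were 90.7 ± 20.2 and 0.110 ± 0.021 (SD, n = 2 each), 822-fold lower with no overlap. limma called all 14622 members lower after Benjamini-Hochberg adjustment over 43025 H3K27me3 peaks, and 100% of all tested peaks were called lower. The loss was not particular to members: the mean fell 691-fold in peaks inside H3K36me2 peaks, 664-fold in the flanks and 531-fold in windows free of any peak. The sources used here do not state how the factor was derived, so the absolute size rests on it.

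The remaining H3K27me3 was distributed differently between these sets. The relative H3K27me3 level of members was 2.05 and 2.03 in DMSO and 1.30 and 1.35 after the inhibitor, a change of -0.62 on the log2 scale (pairs from -0.65 to -0.59). In peak-free windows it was 0.344 and 0.353 before and 0.345 and 0.358 after. Members thus fell towards the library mean and peak-free windows did not move beyond their spread. The within-library ratio of members to inside peaks was 0.791 and 0.785 in DMSO and 0.623 and 0.704 after the inhibitor. The log2 difference was -0.25 (SD within arms 0.089), and the exact two-sided permutation test gave p = 0.333, the smallest that 2 against 2 libraries allow. In the upper part of the peak score this difference was -0.06 with overlapping arms (exact permutation p = 1.0), and without the first inhibitor library it was -0.16.

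**Figure D2:**
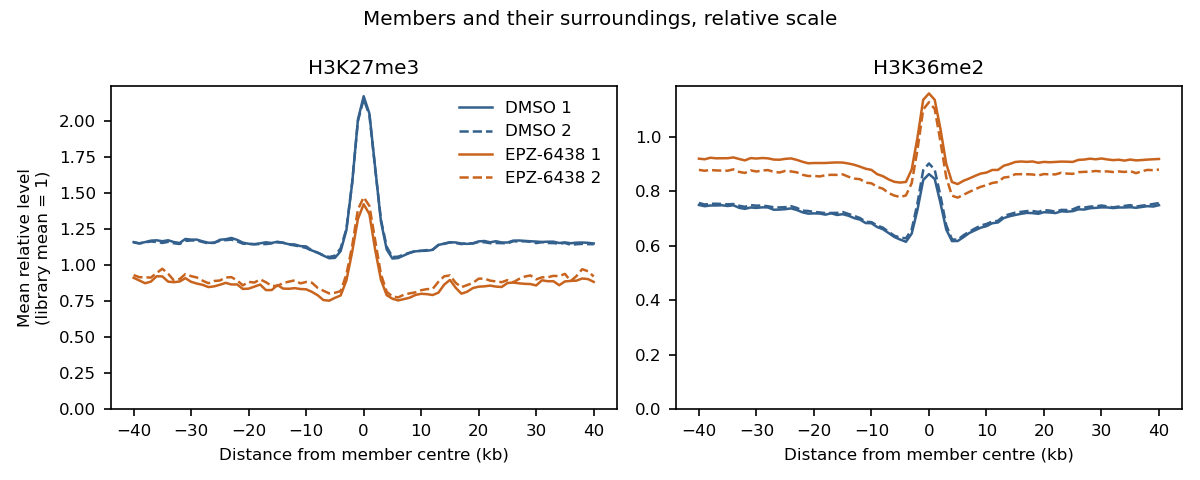
Mean relative level (vertical axis, library mean = 1) of H3K27me3 and H3K36me2 within 40 kb of the centres of the 14622 members (horizontal axis, kb); solid and dashed lines are replicates. H3K27me3 sinks after EPZ-6438 at the centre and around it, and H3K36me2 lies higher along the whole stretch.

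Single members were hard to call on this relative scale. The inhibitor libraries held a median of 2 and 4 window reads per member, and 2770 and 1055 members had none. limma with equal weights called 311 members lower (2.13%), against 1.36% of all tested peaks, and 0 higher, against 0.00697%. Without an adjustment, 3819 members (26.1%) had p under 0.05 in that fit, near the 24.4% of all tested peaks. On reads simulated at these library depths that fit missed the changed peaks and called unchanged ones, so nothing is read from its calls. limma-voom, which weights by depth, did recover simulated rises in peaks with more reads than the median member. Falls, and changes in peaks with few reads, were not simulated, so its lower calls have no such check. limma-voom called 1300 members lower (8.89%) beside 9.68% of all tested peaks, and 79 higher (0.54%) beside 0.604%. Both shares are near the background. Both inhibitor libraries lay below both DMSO libraries in 9473 members (64.8%), against 61.4% of all tested peaks, and above them in 459 (3.14%), against 5.11%. The limma-voom counts shifted with the libraries used. Fewer members were called lower with a DMSO library left out, and more with an inhibitor library left out. The shares of all tested peaks in those fits are not given here.

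The homeobox, helix-loop-helix, signalling, neuronal and Polycomb lists gave 19 genes in members. Of these, limma-voom called 6 higher in relative H3K27me3, beside 0.604% of all tested peaks, and 2 lower, beside 9.68%. The lower calls are near that background, and 11 did not pass. In members whose richest coding promoter had 0 to 4, 5 to 9, 10 to 19 and 20 or more CpG, 0.769%, 2.19%, 7.65% and 9.24% were called higher. The classes richer in CpG also had more members with enough reads, as given below. Of the 9 neuronal receptors and channels, 2 were called higher and 1 lower, the latter again near the 9.68% of all tested peaks. Car10, which encodes a carbonic anhydrase-related protein of the brain, stood at 12.2 and 11.9 times the library mean in DMSO and at 66.4 and 78.8 after the inhibitor. On the spike-in scale the same member read 627 and 448 in DMSO and 6.37 and 5.53 after, so it lost the mark, but less than its library's mean did. limma-voom gave Car10 a relative log2 change of 2.58 ± 0.16 (SE) with an adjusted p of 1.46e-06.

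Nrg3, which encodes a ligand of the receptor ERBB4, stood at 13.1 and 14.1 in DMSO and 50.3 and 63.0 after the inhibitor (limma-voom adjusted p = 2.41e-05). Nkx2-1 went from 6.96 and 7.34 to 24.9 and 36.9 (limma-voom adjusted p = 3.99e-06). The cell adhesion genes Pcdh17 and Pcdh10 rose in relative level as well. Pcdh17 went from 14.5 and 12.3 to 45.7 and 48.9 (limma-voom adjusted p = 0.000114). Pcdh10 went from 11.5 and 10.7 to 27.6 and 42.5 (limma-voom adjusted p = 0.000402). In all 5 genes both inhibitor libraries stood above both DMSO libraries, and the calls held with any library left out.

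Smaller rises passed the same test at Nkx6-1, from 5.87 and 6.0 to 10.1 and 13.8, and at Fgf9, which encodes a growth factor, from 7.47 and 6.05 to 13.4 and 17.8 (limma-voom adjusted p = 0.00356 and 0.00462). Kcna3, a potassium channel subunit, rose from 4.44 and 4.25 to 9.48 and 8.12 (limma-voom adjusted p = 0.00973). Htr1a, a serotonin receptor, went from 6.83 and 6.98 to 10.3 and 17.9, Ntng1 from 14.0 and 12.6 to 22.4 and 27.6 and Atoh1 from 5.13 and 5.98 to 7.31 and 14.6. Their limma-voom adjusted p-values were 0.0122, 0.0331 and 0.0187, which rose to 0.0562, 0.116 and 0.154 with a library left out.

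Other list genes lost more than the library mean did. Isl1 went from 3.97 and 3.52 to 1.85 and 1.07 (limma-voom adjusted p = 0.0239). Gabrb2, a GABA receptor subunit, went from 4.17 and 3.57 to 1.08 and 1.01 (limma-voom adjusted p = 0.0392), on only 1 and 3 reads after the inhibitor. Both calls were lost when a library was left out, with adjusted p up to 0.0956 and 0.164. The next 3 genes were chosen for a large fall of log2(scaled H3K27me3 + 1), so their values are a description, with no test. Their scaled levels after the inhibitor lay below the added 1, so this ranking follows the DMSO level more than the fold. They are not the members with the largest fold loss. Efna5, which encodes an axon guidance ligand, stood at 9.86 and 8.70 in DMSO and at 5.24 and 2.71 after the inhibitor. Rims1, a presynaptic scaffold gene, read 11.5 and 10.9 and then 7.57 and 7.05, and Rorb, a nuclear receptor gene, read 9.15 and 9.81 and then 3.79 and 4.94. In all 3 both inhibitor libraries lay below both DMSO libraries.

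The remaining genes of the homeobox, helix-loop-helix, signalling, neuronal and Polycomb lists did not pass the limma-voom test. The glutamate receptor gene Gria2 read 10.6 and 10.2 and then 16.2 and 22.2 (limma-voom adjusted p = 0.0528). The muscle regulator Myf5 read 3.46 and 2.95 and then 1.94 and 0.922 (limma-voom adjusted p = 0.0847). For Twist1, Tcf21, Wnt2, Htr2a, Htr7, Kcnc2, Kcnj3, Slc17a6 and Bmi1 the limma-voom adjusted p-values lay between 0.101 and 0.699. The longest members with a coding start, 49.5 kb each, lay over the starts of Reln and Gm50595. Reln read 3.13 and 2.71 and then 3.71 and 3.28 (limma-voom adjusted p = 0.448). Gm50595 read 2.02 and 1.99 and then 1.03 and 1.12. Magel2, among the 10 members of at least 4 kb highest in DMSO H3K27me3, read 10.9 and 10.5 and then 9.93 and 16.7 (limma-voom adjusted p = 0.285).

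**Figure D3:**
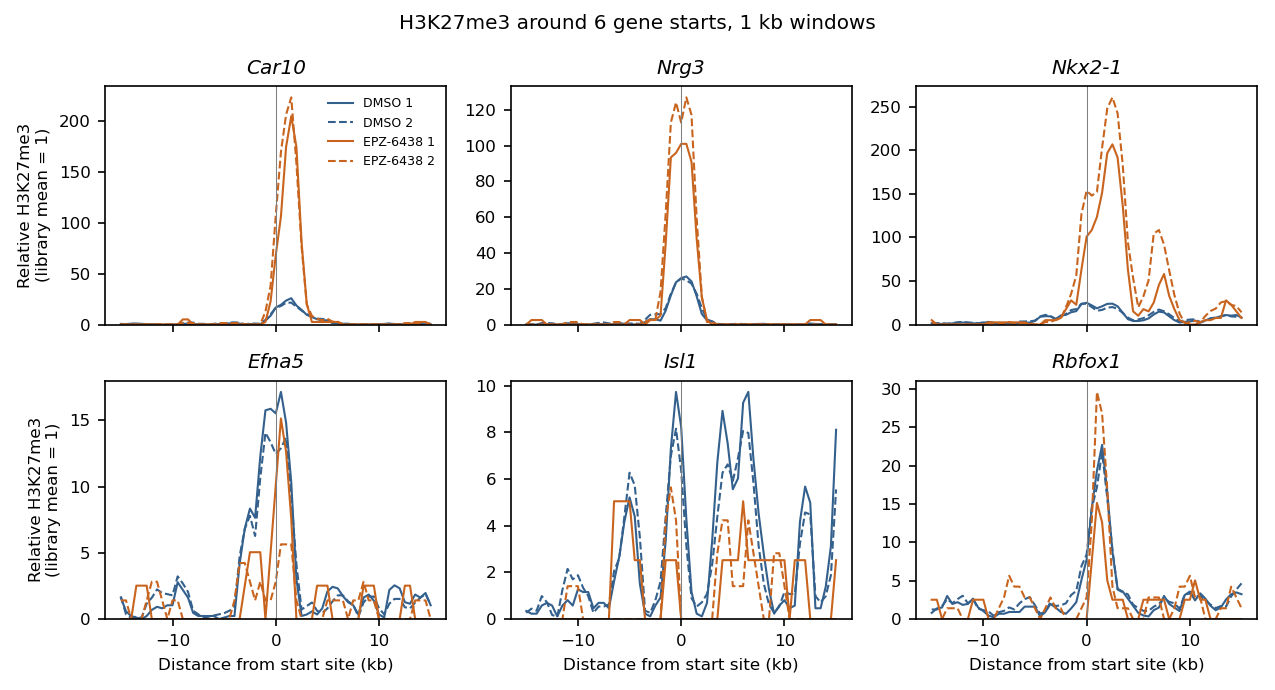
Relative H3K27me3 (vertical axis, library mean = 1; scales differ between panels) in 1 kb windows every 500 bp within 15 kb of 6 gene starts (horizontal axis, kb, positive downstream); solid and dashed lines are replicates. Car10, Nrg3 and Nkx2-1 reach 204 and 223, 101 and 127, and 207 and 261 after EPZ-6438. Efna5 reaches 15.1 and 5.64, against 17.1 and 14.1 in DMSO, so its maxima overlap between arms. Isl1 reaches 5.05 and 5.64, against 9.73 and 8.15 in DMSO. Rbfox1 reaches 15.1 and 29.6, against 22.7 and 21.8 in DMSO. The Car10 panel is centred on the start at chr11:93098366, whereas the printed Car10 stretch precedes the start at chr11:93099290.

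Among all members, 1047 (7.16%) had 10 or more window reads in each inhibitor library, and in 39 of these both inhibitor libraries were at least 2-fold above the higher DMSO library. This set was chosen from its values, so it is described and not tested. The read filter was set on the inhibitor libraries alone, which favours rises. The share of all tested peaks under this rule is not given here, so nothing particular to members is read from the count. It held 7.09% and 8.97% of the members' H3K27me3 window reads after the inhibitor, against 1.47% and 1.53% in DMSO. It has 20 members with a protein-coding start, among them Pcdh7, Adgrl3, Trhde, Cdh8, Gabra5, Bsx, Grm7, Lrrtm1, Sorcs3, Chrm2 and Chrm3. Pcdh7, a protocadherin gene, went from 9.39 and 9.38 to 47.1 and 66.5. Of the rest, 5 lay on chromosome 18 and 13 held no start in the promoter set used. The member at chr12:9561001-9590500 overlaps the coding gene Osr1, but held only a non-coding start in that set. Starts missing from the set were not looked for.

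The largest relative gain in this set was at chr15:72541501-72558000, from 9.34 and 9.08 to 61.9 and 88.3. This member overlaps the potassium channel gene Kcnk9, and whether it holds the Kcnk9 start was not tested. Another site without a start in the promoter set, chr7:62448501-62458000, lay 3.87 kb from Peg12. It went from 1.80 and 3.12 to 8.83 and 18.7. The member with the highest DMSO level of all members of at least 4 kb, chr10:7389501-7395000, covers the pseudogene Gm21321 and went from 16.1 and 14.7 to 52.8 and 63.2. A second pseudogene site, chr13:3357501-3362000 over Gm16505, went from 15.0 and 13.3 to 37.2 and 52.4. These pseudogene sites also had H3K36me3 of 1.86 and 2.21 and of 1.38 and 1.51, above the mean of members; whether reads there map uniquely was not tested.

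Members with more CpG in their promoter held more H3K27me3 in DMSO. The median relative level was lower in both inhibitor libraries in each CpG class, and the means of the CpG-rich classes were not. Members with no start read 1.92 and 1.91 in DMSO and 1.17 and 1.2 after the inhibitor. The 260 members whose richest coding promoter had 0 to 4 CpG in 300 bases read 2.40 and 2.39 and then 1.51 and 1.54. The 183 members with 5 to 9 CpG read 3.16 and 3.08 and then 2.00 and 2.10. The DMSO level rose from class to class, and in these classes the mean fell after the inhibitor.

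In the richer classes mean and median differed. The 183 members with 10 to 19 CpG read 4.51 and 4.43 and then 3.97 and 4.53, and the 238 with 20 or more read 4.80 and 4.78 and then 4.87 and 5.79, so the means did not fall beyond the replicate spread. The medians did: from 3.96 and 3.83 to 2.24 and 2.42 with 10 to 19 CpG, and from 4.06 and 4.01 to 2.28 and 2.61 with 20 or more. In the richest class both inhibitor libraries lay below both DMSO libraries in 155 members (65.1%) and above them in 42 (17.6%), against 64.2% and 2.69% of members without a start. limma-voom called 23 of the 238 lower (9.66%) and 22 higher (9.24%), beside 9.68% and 0.604% of all tested peaks. Of the 238, 111 (46.6%) had 10 or more window reads in both inhibitor libraries, and 10 of these 111 were at least 2-fold above DMSO. With 10 to 19 CpG the counts were 79 (43.2%) and 8, and with 5 to 9 they were 43 (23.5%) and 2. With 0 to 4 CpG they were 30 (11.5%) and 0, and without a start 649 (5.13%) and 13. The shares called higher are thus not compared at equal read numbers. The within-library ratio of the mean of the richest class to that of members without a start was 2.50 and 2.50 in DMSO and 4.17 and 4.84 after the inhibitor, a log2 difference of 0.85 (SD within arms 0.11; exact permutation p = 0.333, the smallest possible). With medians the ratio was 2.34 and 2.30 in DMSO and 2.41 and 2.59 after, a log2 difference of 0.11. On the spike-in scale the mean of this class still fell 483-fold, against 868-fold for members with no start. These classes, and the use of medians in them, were chosen after the values had been seen. DMSO level and CpG number rose together over these classes, and the part of each was not tested. The top 10% of members by DMSO H3K27me3, a set chosen by that level, averaged 4.51 in DMSO and 3.75 after the inhibitor (log2 change -0.27).

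**Figure D4:**
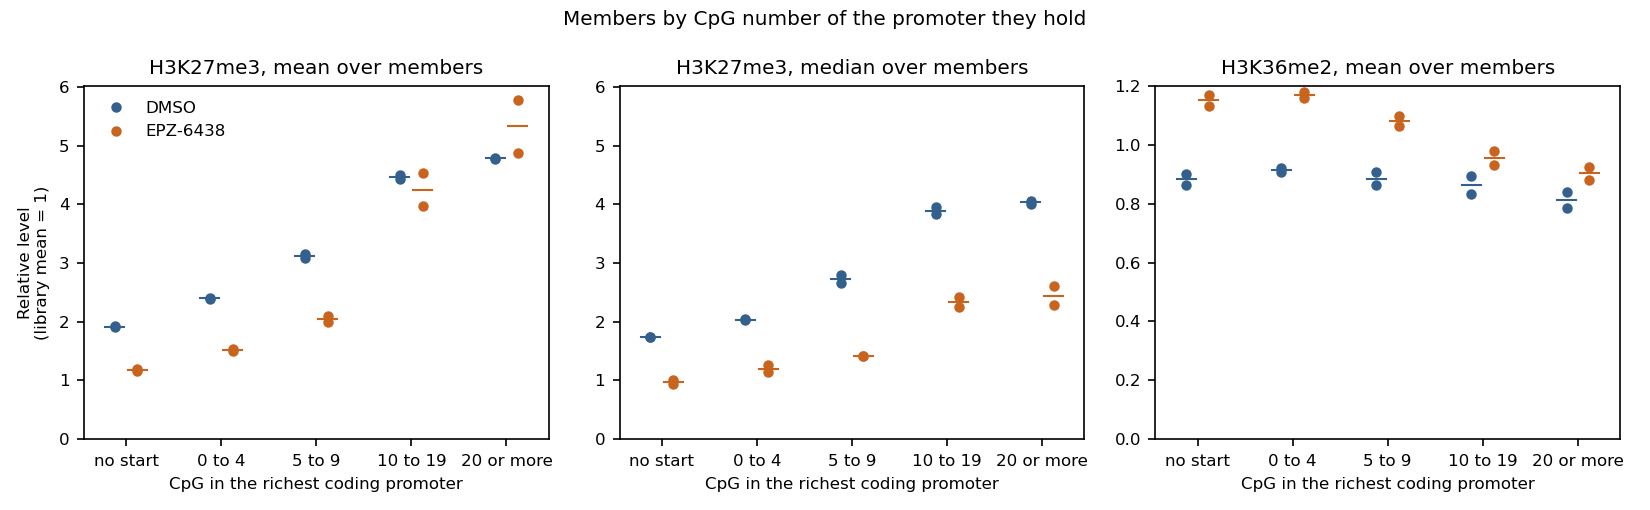
Relative level (vertical axis, library mean = 1) of H3K27me3 (mean, then median over members) and H3K36me2 (mean) in members without a start and in members grouped by the CpG number of their richest coding promoter (horizontal axis); points are libraries and lines their means. Median H3K27me3 is lower after EPZ-6438 in each class, whereas mean H3K27me3 overlaps DMSO at 10 to 19 CpG and lies above it at 20 or more. In that last class 111 of 238 members had 10 or more window reads in both inhibitor libraries. Of these 111, 10 were at least 2-fold above DMSO.

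H3K36me2 took the opposite course in members. Its relative level was 0.866 and 0.904 in DMSO and 1.16 and 1.13 after the inhibitor, with means of 0.885 ± 0.026 and 1.145 ± 0.024 (SD, n = 2 each), 1.29-fold higher. limma called 4192 members higher (28.7%) after adjustment over all 43025 peaks, of which 10.5% were called higher, and 10 lower, against 0.407%. Both inhibitor libraries exceeded both DMSO libraries in 11384 members (77.9%), against 39.7% of all tested peaks, and fell below them in 233 (1.59%), against 24.8%. Peaks inside H3K36me2 peaks went from 2.48 and 2.44 to 2.22 and 2.25, and 7 of 15936 were called higher. No member stayed called when any of the 4 libraries was left out.

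The ratio within a library makes no use of scaling. Members carried 0.350 and 0.370 of the H3K36me2 of inside peaks in DMSO and 0.524 and 0.502 after the inhibitor. The log2 difference was 0.51 (SD within arms 0.051), and the 4 ratios did not overlap between arms (exact permutation p = 0.333, the smallest possible).

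On the spike-in scale the rise did not exceed the replicate spread. Members read 295 and 203 in DMSO and 493 and 269 after the inhibitor, so the arms overlapped, and the means were 249 ± 65 and 381 ± 159 (SD, n = 2 each). limma called 0 members (0% of all tested peaks) and limma-voom called 0, while 936 members (6.40%) had an unadjusted p under 0.05, against 2.49% of all tested peaks. Both inhibitor libraries exceeded both DMSO libraries in 5527 members (37.8%), against 14.5% of all tested peaks. With replicate numbers as a block, 71.0% of members were called higher on this scale, but the labels do not say that the numbers pair the libraries. The share of all tested peaks in that fit is not given here, so nothing particular to members is read from it. Over all tested peaks the median log2 change was 0.05 on the relative scale and 0.26 on the spike-in scale; for members it was 0.37 and 0.61.

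The gain of H3K36me2 was not confined to members. The flanks went from 0.402 and 0.40 to 0.574 and 0.525, a log2 change of 0.45, and the members that have such flanks changed by 0.40. Peak-free windows went from 0.309 and 0.300 to 0.399 and 0.371, a log2 change of 0.34. In members, flanks and peak-free windows alike both inhibitor libraries stood above both DMSO libraries. Among these sets only the peaks inside H3K36me2 peaks fell on this relative scale, by 0.14 on the log2 scale, and partly covered peaks changed by 0.05. On the spike-in scale the inside peaks changed by 0.06 and partly covered peaks by 0.25 (log2), in the other direction for the inside peaks, with arms that overlapped in both.

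**Figure D5:**
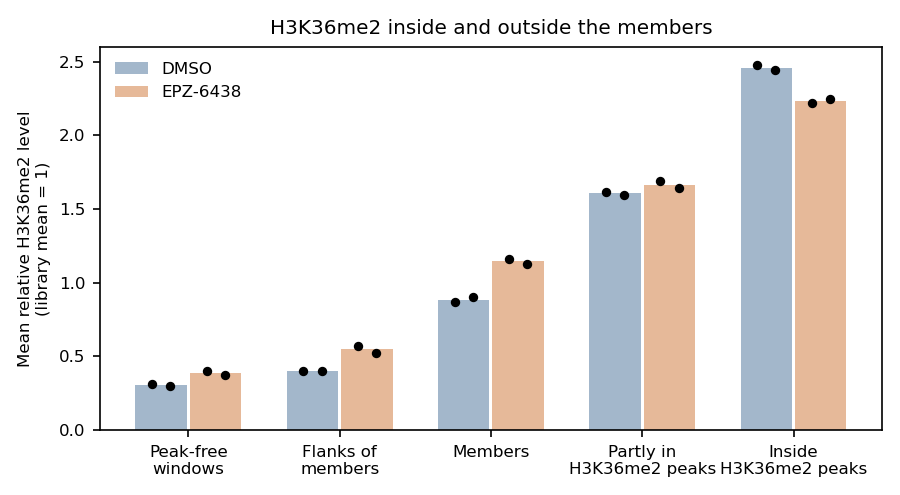
Mean relative H3K36me2 (vertical axis, library mean = 1) in peak-free windows, flanks of members, members, partly covered peaks and peaks inside H3K36me2 peaks, with DMSO and EPZ-6438 side by side; bars are means and points the 2 libraries. The first 3 sets lie higher after EPZ-6438 and the inside peaks lie lower.

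On the relative scale, members far from H3K36me2 peaks gained most H3K36me2. The 3392 members under 10 kb from an H3K36me2 peak read 1.07 and 1.08 in DMSO and 1.31 and 1.25 after the inhibitor, a log2 change of 0.25. The 7000 members at 10 to 100 kb changed by 0.37. The 4230 members over 100 kb away went from 0.671 and 0.727 to 0.997 and 0.998, a change of 0.51. On the spike-in scale these groups changed by 0.45, 0.57 and 0.72 (log2). There the arms overlapped in the nearer groups and not in the farthest (pairs from 0.06 to 1.37). The farther groups also started lower, and the parts of distance and starting level were not tested.

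Among members of at least 4 kb, the one with the largest called rise of H3K36me2, chr3:110162501-110167000, touches no protein-coding gene and went from 0.319 and 0.204 to 0.804 and 0.974. Its log2 change was 1.46 ± 0.18 (SE). The members in this account were chosen for their change, so no test of that change is given. Of the 10 largest rises in members of this length, 3 overlapped protein-coding genes. Another, chr4:88994501-88999000, overlapped the long non-coding RNA gene Gm34568. The member at Hdac9, a histone deacetylase gene, at chr12:34658001-34664000, went from 0.259 and 0.194 to 0.691 and 0.626. The member at Fgf12 went from 0.346 and 0.385 to 0.827 and 1.14. The member at Grik1, a kainate receptor gene, went from 0.392 and 0.393 to 0.922 and 1.02. All 10 had DMSO levels below 0.4 and were between 125 and 1695 kb from an H3K36me2 peak.

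Of the 5 largest called falls of H3K36me2 in members of this length, the one with a coding start was at Nxph1, which encodes a neurexin ligand, from 1.15 and 1.29 to 0.764 and 0.876 (log2 change -0.52 ± 0.11, SE). H3K27me3 at Nxph1 read 5.79 and 5.95 in DMSO and 6.73 and 10.1 after the inhibitor, which did not pass the test (limma-voom adjusted p = 0.155). A member that overlaps Slc35f4 fell from 0.677 and 0.624 to 0.428 and 0.408.

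The share of members called higher in H3K36me2 was read by CpG class, with no test of the difference between classes. Beside 10.5% of all tested peaks, it was called higher in 29.7% of members without a start, in 30.8% of those with 0 to 4 CpG, in 19.1% with 5 to 9, in 8.20% with 10 to 19 and in 7.98% with 20 or more; the last pair of shares lies near that background. In the last class H3K36me2 read 0.785 and 0.840 in DMSO and 0.881 and 0.925 after the inhibitor. Its within-library ratio to members without a start was 0.907 and 0.931 in DMSO and 0.753 and 0.817 after, a log2 difference of -0.23 (SD within arms 0.062; exact permutation p = 0.333, the smallest possible). At Car10, Nrg3, Pcdh17, Pcdh10 and Nkx2-1, H3K36me2 passed no test. Car10 read 0.404 and 0.468 and then 0.376 and 0.450 (log2 change -0.07; limma adjusted p = 0.717). Nrg3, Pcdh17, Pcdh10 and Nkx2-1 changed by -0.21, -0.17, -0.12 and -0.06 (limma adjusted p = 0.453, 0.591, 0.489 and 0.74). Of the 19 list genes in members 1 was called higher, against 10.5% of all tested peaks: Kcna3 (log2 change 0.39; limma adjusted p = 0.0456).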

How the data were processed

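Tracks and peak lists were used as deposited. The deposited log2 tracks give 1 kb windows every 500 bp; from the values, each is log2 of 1 plus a whole read count times a factor, and whole window reads came out in 100% of windows (tolerance 0.02). In untreated libraries the factor gives RPM, reads scaled to library size; in the quantitative libraries it is read here as a spike-in scaling by the authors, whose derivation is not given in the sources used here. Per the submitters' processing notes, Trim Galore 0.4.2, Bowtie2 2.2.6.2, SICER, mm10 and dm3 were used. The authors' deposited peak score only split peaks into an upper part by score.

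A level is the mean over windows wholly inside a peak. limma 3.58.1 (R 4.3.3) was fitted to all 43025 H3K27me3 peaks of chromosomes 1 to 19 and X, on log2(level + 1) for the spike-in scale and log2(relative level + 0.1) for the relative scale, called under 0.05 after Benjamini-Hochberg adjustment; fold changes on these scales understate changes at low levels. limma-voom used the recovered reads. Single values were compared by exact two-sided permutation. The fits were tested on simulated rises, for H3K27me3 in peaks with more reads than the median member. Simulated replicates varied little beyond counting error, and falls were not simulated. There the limma fit with equal weights missed changed peaks in relative H3K27me3 and limma-voom recovered them. The limma-voom values given for single H3K27me3 genes were therefore chosen after the data were seen. Members, gene lists and tests were chosen with earlier results of these data known. Members named in the text were drawn from the 10 longest, the 10 of at least 4 kb highest in DMSO H3K27me3, and genes of the lists. In members of at least 4 kb they were also drawn from the largest called changes of H3K36me2 and the 5 largest falls of log2(scaled H3K27me3 + 1). Not all of these are named. Others are marked as chosen after their values were seen. Gene starts came from a RefSeq promoter set on GRCm38.p6. It held 17492 protein-coding genes, but not every gene of the lists and none of chromosome 18. Alternatives were another pseudocount, other filters, limma-voom, a replicate block, other member definitions and leaving out each library. Read numbers cover counting error only.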

Additional observations from a re-analysis of the deposited data

How the results depend on the processing

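None of the settings run for the results below reversed one. Other choices did turn a direction: with 20 or more CpG, relative H3K27me3 changed by 0.15 in its mean and by -0.73 in its median (log2), and H3K36me2 inside H3K36me2 peaks changed by -0.14 on the relative and 0.06 on the spike-in scale. The inhibitor change of the H3K27me3 ratio of members to inside peaks (-0.25) became -0.06 in the upper score part (exact permutation p = 1.0) and -0.16 to -0.34 with a library left out. The members' share called lower in relative H3K27me3 (2.13%) became 0% with a pseudocount of 0.5, with a level above 0 required in all 4 libraries and with the replicate block, 8.89% with limma-voom and 0.275% in the upper score part; leaving out a library gave 0% to 61.8%. With limma-voom, fewer members were called lower or higher without a DMSO library, and more without an inhibitor library. Shares of all tested peaks under the replicate block and with a library left out are not given here. The share called higher in relative H3K36me2 (28.7%) became 50.5% with the replicate block and 0% without any 1 library, and on the spike-in scale it became 71.0% with the replicate block and ranged from 0% to 0.00684% with a library left out. Replicate numbers are not shown to pair the libraries: same-numbered differences correlated at 0.049 for H3K27me3 and 0.272 for H3K36me2 over 39750 peaks, with 2 pairs. The untreated H3K36me3 log2 ratio of members to inside peaks became -1.69 with medians, -1.72 against peaks covered at least 50% and -1.82 in the upper score part. The share of members with a coding start became 12.9% in the upper score part. Requiring 50% cover, H3K27me2 peaks covered 11.8% and H3K27me1 peaks 3.95% of members. The cause of these shifts was not tested. Depth limits relative H3K27me3 after the inhibitor most, with a median of 2 and 4 window reads per member.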

Other observations

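Chromosome X was outside the rule, but 243 of its H3K27me3 peaks meet every other condition. They held more H3K27me3 than the autosomal members, 2.99 and 3.02 times the autosomal mean in DMSO and 2.23 and 2.54 after the inhibitor. The lower methylation states were scarcer there: H3K27me1 read 0.398 and 0.349 and H3K27me2 read 0.465 and 0.485 in untreated cells. H3K36me2 read 0.743 and 0.756 in DMSO and 0.762 and 0.779 after the inhibitor, a log2 change of 0.04, against 0.37 in the autosomal members. The line is male and carries a single X, and levels there are divided by an autosomal mean.

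A member over the ribosomal RNA gene Gm22291, chr8:123617501-123619500, read 7.42 and 6.63 in DMSO and 21.9 and 33.9 after the inhibitor for relative H3K27me3. It was singled out after its values were seen, and whether reads there map to a single place was not tested.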
